A study of Mus musculus with 3 samples.

Results

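Cholesterol synthesis and sterol handling was examined through 28 genes, chosen by their names. All 28 were found among the 55401 genes listed in the count files. They comprised 20 enzymes of cholesterol synthesis (8 of the mevalonate arm, 3 from farnesyl diphosphate to lanosterol and 9 from lanosterol to cholesterol), 5 sensors and regulators, and 3 sterol transport proteins. The tissue was the maxillary process of E10.5 *wnt1cre; Rosa26Dlx2/-* mouse embryos, the part of the first pharyngeal arch that forms the upper jaw. In these embryos Cre recombinase from the *wnt1cre* allele removes a stop cassette from the *Rosa26CAG-LSL-Dlx2-3xFlag* allele, so that *Dlx2* is overexpressed in cells derived from the neural crest, while the dissected tissue also holds other cells, such as epithelium, blood and vessels. The 3 libraries of this genotype (OE replicates 1, 2 and 3) came from independent RNA samples, and the sources used here do not say how many embryos entered each. The wild type was not analysed here. The values are therefore levels in OE tissue and differences between OE libraries, and none is an effect of *Dlx2*.

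Cells build cholesterol from acetyl-CoA through mevalonate, farnesyl diphosphate, squalene and lanosterol. When sterols in the endoplasmic reticulum are low, SCAP escorts the SREBP transcription factors to the Golgi, where they are cut and released to switch on genes of the pathway, whereas INSIG proteins hold SCAP back when sterols are high. Cholesterol is attached to Hedgehog ligands and sterols act on Smoothened, and loss of the last reductase, *Dhcr7*, underlies Smith-Lemli-Opitz syndrome, in which the face is malformed.

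The libraries held 35351031 to 40057435 counts on genes. *Dlx2* itself was at 235, 201 and 183 CPM (counts per 1000000 counts on genes, with library totals scaled by the TMM method) in OE replicates 1, 2 and 3, a level that cannot be set against the wild type here. The 7 mesenchyme markers, among them *Prrx1*, *Twist1* and *Lhx8*, were present in every library and summed to 1823 to 2429 CPM. Replicate 3 was highest for 3 of them, such as *Barx1* (332, 409 and 928 CPM in replicates 1, 2 and 3). It was lowest for 2, such as *Prrx1* (629, 582 and 419 CPM). The libraries differed in markers of other cells. A list of 9 neuron genes summed to 273, 24.3 and 35.9 CPM in replicates 1, 2 and 3, 6 glia genes to 98.2, 25.2 and 26.4, and 7 eye and forebrain genes to 29.95, 165 and 156. The sum of 7 pigment cell genes was 6.81, 38.4 and 163 CPM, with *Tyr* and *Tyrp1* at 0 counts in replicate 1, which allows up to 0.0777 CPM. Epithelial genes (6) summed to 340, 223 and 224 CPM, red blood cell genes (5) to 1947, 3633 and 4262, and endothelial genes (5) to 243, 265 and 178. Within the epithelial list, replicate 3 was lowest for 3 genes, such as *Cdh1* (48.1, 32.5 and 13.4 CPM). It was highest for 2, such as *Krt18* (86.7, 65.5 and 108 CPM). *Xist* was at 671, 0.309 and 0.557 CPM. The part of these differences in the values below was not tested, and in bulk tissue fewer cells of a type cannot be told apart from less RNA per cell.

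Promoter windows from RefSeq (GRCm38.p6, from 250 bases before to 50 bases after a transcript start) were matched by symbol for 23 of the 28 genes, in 31 windows. They are shown for *Hmgcs1*, the only member with a match to TCACNCCAC, and for *Idi1*, *Hsd17b7* and *Npc2*, the 3 genes at least 1.5-fold from the other libraries in replicate 3 once the trend on length and GC content was removed. Capitals mark TCACNCCAC, the core of a sterol regulatory element, and CCAAT, the box bound by NF-Y, each on either strand, and no marked matches overlap between the motifs. The windows, in the direction of transcription, are chr13:119690101-119690400 (plus strand), chr13:8885356-8885655 (plus strand), chr1:169969156-169969455 (minus strand) and chr12:84773063-84773362 (minus strand).
Hmgcs1: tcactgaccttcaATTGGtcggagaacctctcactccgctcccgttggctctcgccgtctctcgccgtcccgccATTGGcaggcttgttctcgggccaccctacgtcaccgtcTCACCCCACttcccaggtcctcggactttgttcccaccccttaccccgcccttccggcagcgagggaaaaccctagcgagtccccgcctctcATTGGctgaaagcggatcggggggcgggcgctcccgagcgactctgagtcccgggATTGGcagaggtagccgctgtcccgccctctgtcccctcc
Idi1: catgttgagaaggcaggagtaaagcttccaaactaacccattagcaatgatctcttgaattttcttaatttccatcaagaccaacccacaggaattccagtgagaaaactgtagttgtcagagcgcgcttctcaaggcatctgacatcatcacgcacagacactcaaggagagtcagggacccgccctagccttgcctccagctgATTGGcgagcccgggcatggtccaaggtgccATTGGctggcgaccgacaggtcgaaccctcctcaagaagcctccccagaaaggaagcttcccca
Hsd17b7: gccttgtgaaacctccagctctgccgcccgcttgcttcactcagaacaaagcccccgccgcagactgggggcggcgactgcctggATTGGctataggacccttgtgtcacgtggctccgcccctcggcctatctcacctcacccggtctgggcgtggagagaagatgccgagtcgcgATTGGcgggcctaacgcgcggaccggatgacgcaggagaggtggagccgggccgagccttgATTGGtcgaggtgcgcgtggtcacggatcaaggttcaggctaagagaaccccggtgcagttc
Npc2: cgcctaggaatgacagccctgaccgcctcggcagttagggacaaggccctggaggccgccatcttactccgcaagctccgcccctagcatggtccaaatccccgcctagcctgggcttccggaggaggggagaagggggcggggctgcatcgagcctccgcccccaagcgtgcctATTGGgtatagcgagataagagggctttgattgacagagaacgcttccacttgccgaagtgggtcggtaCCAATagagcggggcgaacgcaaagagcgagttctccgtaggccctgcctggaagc

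TCACNCCAC was found in 1 of 23 genes, in *Hmgcs1* at position -137 from the start, and in 1.44% of the 27025 genes with a window. A CCAAT box was found in 21 of 23 genes, against 41.1% of all genes with a window and 42.5% of the 11625 that were among the genes tested. GGGCGG, a binding motif of Sp1, was also found in 21 of 23, against 38.2% and 67.3%. TAATTA, a core bound by homeodomain proteins, was found in 1 of 23 (*Ebp*), against 6.12% and 3.23%. Within the windows shown, *Hmgcs1* has 4 CCAAT boxes, *Hsd17b7* has 3, and *Idi1* and *Npc2* have 2 each. A match is a match of letters and no measure of binding.

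The whole route to cholesterol was transcribed at E10.5. On a per-length scale (RPKM, CPM per kilobase of annotated exon), the median of the 28 genes was 15.6 RPKM against 3.45 RPKM over the 17115 genes tested, those whose count averaged 10 or more, and 26 of the 28 lay above that overall median. The sum of the 20 synthesis enzymes was 1945, 1733 and 1637 CPM in replicates 1, 2 and 3, or 1772 ± 158 (SD, n = 3). The summed level was thus highest in replicate 1 and lowest in replicate 3, whereas single genes moved in both directions. Apart from *Fdps*, the smallest count of a member in any library was 409.

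**Figure D1:**
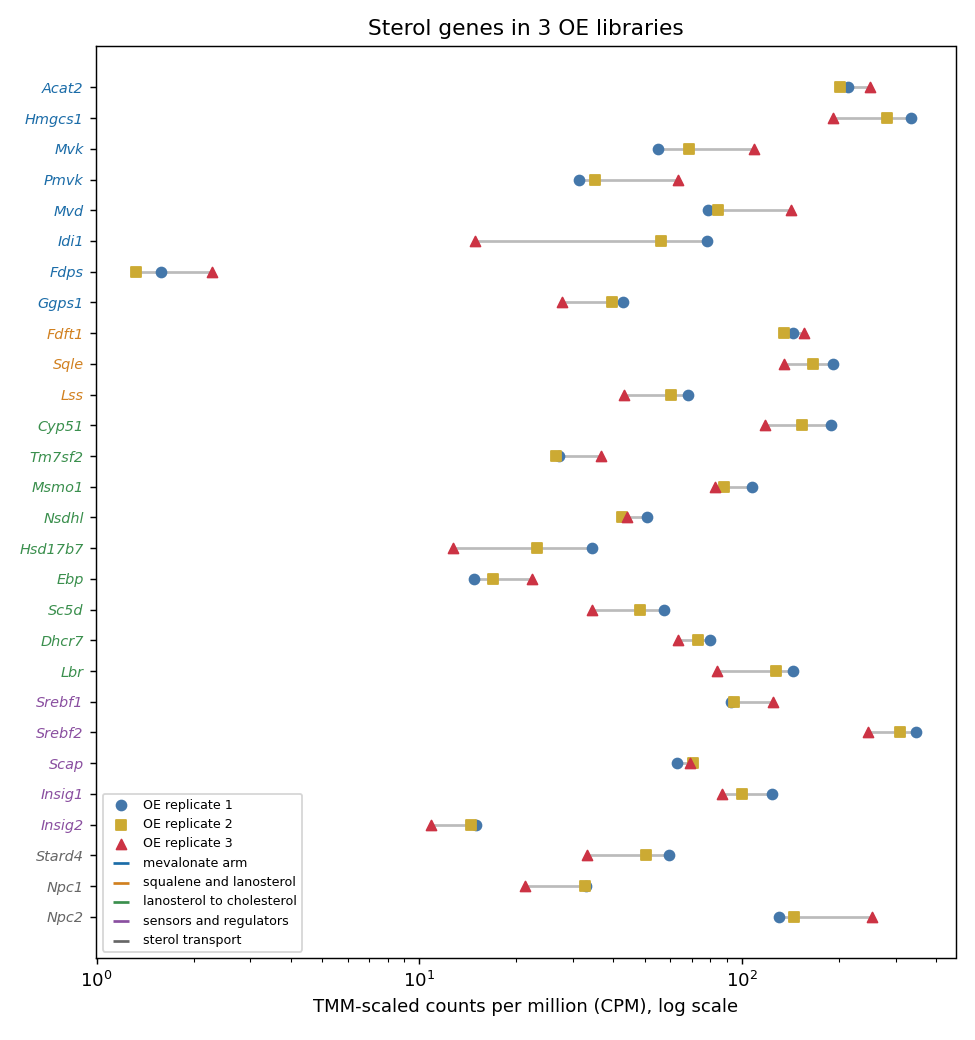
TMM-scaled CPM (log axis) of the 28 sterol genes in OE replicates 1, 2 and 3, with 1 symbol per library and a grey line from the lowest to the highest library. *Idi1* spanned the widest range, from 14.9 to 77.9 CPM, and *Fdps* was counted at 1.32 to 2.28 CPM.

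The first enzymes of the mevalonate arm had the highest per-length levels. *Acat2*, which joins acetyl-CoA units, had the highest per-length level of the 28 genes, at 84.3, 79.1 and 98.4 RPKM in replicates 1, 2 and 3. *Hmgcs1*, which makes HMG-CoA, followed at 72.7, 61.4 and 41.9 RPKM. The next in order, *Mvd* at 54.7 ± 18.8 RPKM and *Srebf2* at 42.0 ± 7.14 RPKM (SD, n = 3), overlapped *Hmgcs1* (58.7 ± 15.6) within their spread. With the length of the principal transcript in place of all annotated exons, a choice made after the data were seen, *Acat2* and *Hmgcs1* still had the highest means, though the ranges of the pair over the libraries then overlapped and *Hmgcs1* was slightly ahead in replicate 1. They were followed by *Sqle* (59.7 RPKM), *Srebf2* (59.4) and *Mvd* (57.9). *Acat2* was at 214, 201 and 250 CPM in replicates 1, 2 and 3, and was highest in replicate 3. *Hmgcs1* (chromosome 13, 119690379 to 119708260, plus strand) was at 334, 282 and 192 CPM and was lowest there. Of its coding bases, 35.1% overlap a gene on the opposite strand, and the library kit does not mark strand.

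The kinases *Mvk* and *Pmvk* and the decarboxylase *Mvd*, which turn mevalonate into isopentenyl diphosphate, shared one pattern. *Mvk* was at 55.1, 68.7 and 109 CPM, *Pmvk* at 31.4, 35.2 and 63.5, and *Mvd* at 78.4, 84.8 and 142. All were highest in replicate 3 and lowest in replicate 1. The next enzyme, *Idi1*, which isomerises isopentenyl diphosphate, went the other way. *Idi1* (chromosome 13, 8885501 to 8892451, plus strand) was at 77.9, 56.4 and 14.9 CPM, a ratio of 5.24 between the highest and the lowest library. That ratio, taken on CPM + 1, lay at percentile 99.3 of all genes tested. *Ggps1*, which makes the geranylgeranyl diphosphate used for protein prenylation, was at 42.9, 39.7 and 27.7 CPM.

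*Fdps*, the farnesyl diphosphate synthase at the branch point of the pathway, was counted at only 61, 47 and 86 reads, or 1.58, 1.32 and 2.28 CPM. Its level of 0.411 ± 0.118 RPKM (SD, n = 3) was the lowest of the 28 genes. In GENCODE M21, *Fdps* (chromosome 3 of GRCm38, 89093588 to 89101959, minus strand) shares 85.9% of its coding bases with *Gm43738*, a longer gene of the same strand that also spans *Rusc1* and had 0 counts in each library. The count files give reads that fit more than 1 gene in a row of their own, 6.10% to 6.96% of counted reads, and how many of these came from *Fdps* cannot be told apart. The level of *Fdps* relative to its neighbours in the pathway is therefore uncertain.

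Of the enzymes that lead to lanosterol, *Fdft1*, squalene synthase, was the steadiest of the synthesis enzymes, at 144, 135 and 156 CPM (34.4 ± 2.49 RPKM). *Sqle*, squalene epoxidase, was at 192, 167 and 136 CPM, and *Lss*, lanosterol synthase, at 68.1, 60.6 and 43.3 CPM. The first of these was highest in replicate 3 and the others were lowest there.

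Among the enzymes after lanosterol, *Cyp51*, the lanosterol demethylase, was at 189, 154 and 118 CPM or 34.8 ± 7.98 RPKM (SD, n = 3). It had the highest per-length level of these enzymes over all annotated exons, whereas with the principal transcript length *Msmo1* was ahead (45.4 against 39.1 RPKM). The reduction that follows can be made by the product of *Tm7sf2* or of *Lbr*, the latter also being a protein of the inner nuclear membrane. *Lbr* was at 145, 128 and 84.1 CPM and *Tm7sf2* at 27.1, 26.7 and 36.5 CPM. *Lbr* was lowest in replicate 3 and *Tm7sf2* was highest there. *Msmo1*, *Nsdhl* and *Hsd17b7*, which remove the methyl groups next to the sterol hydroxyl, were all highest in replicate 1. *Msmo1* was at 108, 87.9 and 82.8 CPM and *Nsdhl* at 50.7, 42.7 and 44.1. *Hsd17b7* (chromosome 1, 169949535 to 169969241, minus strand) was at 34.3, 23.2 and 12.8 CPM, a ratio of 2.68 between libraries and the second largest for an enzyme after that of *Idi1*. The last steps were carried by *Ebp*, the sterol isomerase, at 14.8, 16.9 and 22.4 CPM, *Sc5d*, the sterol desaturase, at 57.6, 48.4 and 34.4 CPM, and *Dhcr7* at 79.6, 73.1 and 63.7 CPM. *Ebp* was thus lowest where *Dhcr7* and *Sc5d* were highest. *Ebp* and *Nsdhl* lie on the X chromosome. *Ebp* was lowest and *Nsdhl* highest in replicate 1, the library with *Xist*.

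Both SREBP genes were expressed, with *Srebf2* ahead. *Srebf2*, whose product acts mainly on cholesterol genes, was at 348, 310 and 247 CPM. *Srebf1*, linked mainly to fatty acid synthesis, was at 92.8, 94.7 and 125 CPM. On the per-length scale the log2 ratio of *Srebf2* to *Srebf1* was 1.56, 1.36 and 0.63 in replicates 1, 2 and 3, a mean of 1.18 ± 0.49 (SD, n = 3) or 2.27-fold. *Srebf2* was ahead in each library, and by least in replicate 3. *Scap* had the smallest coefficient of variation of the 28 genes (6.04%), at 63.1, 70.9 and 69.4 CPM, and 20.5% of its coding bases overlap a gene on the opposite strand. *Insig1* was at 124, 100.1 and 87.1 CPM and *Insig2* at 15.0, 14.5 and 10.9 CPM. The log2 ratio of *Insig1* to *Insig2* per length was 3.22, 2.95 and 3.17, a mean of 3.11 ± 0.14 (SD, n = 3) or 8.66-fold. Both genes were lowest in replicate 3 and their ratio varied little.

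The transport genes did not move together. *Stard4*, a cytosolic sterol carrier, was at 59.5, 50.4 and 33.1 CPM. *Npc1* and *Npc2*, which together export cholesterol from lysosomes, were at 32.98, 32.7 and 21.4 CPM and at 131, 145 and 253 CPM. The log2 ratio of *Npc2* to *Npc1* per length was 3.04, 3.21 and 4.62, a mean of 3.63 ± 0.87 (SD, n = 3). *Npc2* was thus ahead in each library, and by most in replicate 3. With 3 libraries, an exact sign-flip test of any of these ratios cannot go below p = 0.25, so none was tested. The ratio of *Lbr* to *Tm7sf2*, 1.85 ± 0.66 on the log2 scale per length, rested on the length used. With the length of the principal transcript it was 0.71, and *Tm7sf2* was at 20.4 in place of 6.83 RPKM. In replicate 3 *Tm7sf2* was then slightly ahead of *Lbr*. Exons of *Tm7sf2*, outside its coding bases, also overlap *Vps51* on the same strand, and how many reads this left uncounted cannot be told.

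**Figure D2:**
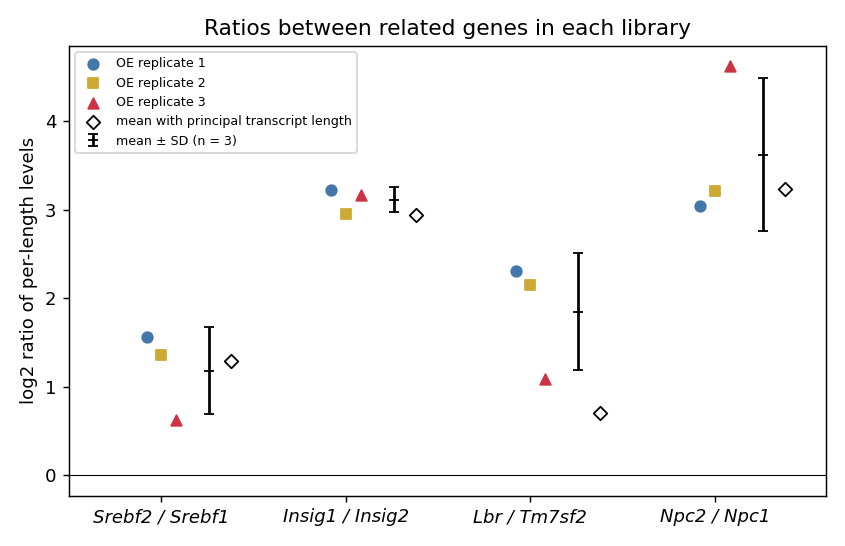
Log2 ratio of per-length levels between related genes in each OE library, with the mean ± SD (n = 3) and, as open diamonds, the mean with principal transcript lengths. The *Insig1* to *Insig2* ratio stayed within 2.95 to 3.22, whereas the other ratios set replicate 3 apart.

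The counts of each gene in the 3 libraries were then compared with counting noise (chi-square test, Benjamini-Hochberg adjusted over all genes tested). All 28 members passed at 0.05, where 81.5% of the 17115 genes tested passed, so that most genes of these libraries differed beyond counting noise. The largest adjusted p-values among the members were 0.0068 for *Fdps* and 0.00014 for *Scap*. Without replicate 3, 22 of the 28 members and 48.8% of genes passed. The test compares libraries of the same genotype with counting noise and not conditions. The between-library coefficient of variation from edgeR had a median of 0.268 over the members and of 0.338 over all genes tested. Without replicate 3 these were 0.12 and 0.209. The ratio of the highest to the lowest library on CPM + 1 had a median of 1.502 over the members and of 1.45 over all genes tested. Without the added 1 CPM these medians were 1.55 and 1.69, so which was larger depended on that setting.

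Replicate 3 held most of the spread. On log2(CPM + 1), a difference of 1 library from the mean of the other 2 is given without a test, since 1 library has no replicate. In replicate 3, 4 of the 28 genes were at least 1.5-fold higher (*Mvk*, *Pmvk*, *Mvd* and *Npc2*, with log2 differences of 0.82, 0.91, 0.79 and 0.87), where 17.6% of all genes tested were. At least 1.5-fold lower were 7 genes (*Idi1*, *Hsd17b7*, *Stard4*, *Lbr*, *Hmgcs1*, *Sc5d* and *Npc1*), with differences from -2.08 for *Idi1* to -0.60 for *Npc1*, where 18.5% of all genes were. The lowest value lay in replicate 3 for 16 of 28 genes, against 45.6% of all genes, and the highest for 10 of 28, against 43.2%. In replicate 1, 2 members were at least 1.5-fold higher (*Idi1* and *Hsd17b7*, background 11.4%) and 1 was lower (*Mvk*, 10.9%). With the length and GC trend described next removed, *Mvk* in replicate 1 was no longer 1.5-fold lower (-0.39), whereas *Npc2* was (-0.62, from -0.55). In replicate 2, 1 was higher (*Idi1*, 1.57%) and 0 were lower (1.9%). The median difference over the members was 0.27, 0.040 and -0.30 in replicates 1, 2 and 3, and over all genes tested 0.0057, 0.012 and -0.024.

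The direction of a member in replicate 3 went with the length and base composition of its transcript, as it did for genes at large. Over all genes tested, the median log2 difference in replicate 3 was 0.40 in the tenth of genes with the shortest exonic length and -0.53 in the tenth with the longest. It was -0.44 in the tenth with the lowest GC content and 0.46 in that with the highest. The 6 members with under 3000 bp of exon had a median of 0.64, and the 22 longer members -0.41, beside 0.29 and -0.22 for all genes of these lengths. Across the 28 members Pearson's r with GC content was 0.72 (rho 0.78) and with log2 exonic length -0.41 (rho -0.43), where the values over 17101 genes were 0.41 and -0.41. The members share the same libraries and are not independent, so these coefficients carry no p-value. *Pmvk*, *Mvd* and *Mvk* are short and GC-rich (1713, 1859 and 2675 bp of exon; 57.0%, 59.0% and 56.3% GC). *Idi1* has 3505 bp and 41.9% GC. *Npc2*, at 5438 bp and 51.3% GC, was at 0.87 where the 22 longer members had a median of -0.41.

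**Figure D3:**
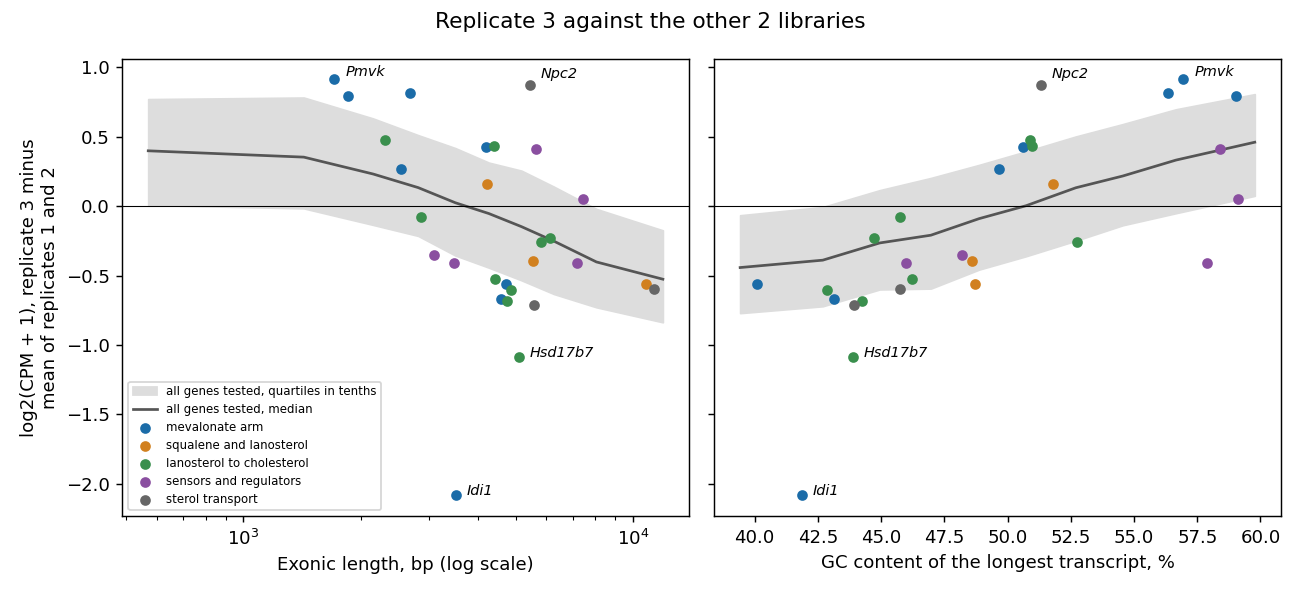
Log2 difference of OE replicate 3 from the mean of replicates 1 and 2 against exonic length (left, log axis) and GC content (right), with sterol genes as points coloured by step and, for all genes tested, the median (line) and quartiles (grey band) in bins of equal gene number. Most sterol genes lie near the trend of all genes, and *Idi1*, at -2.08, lies far below it.

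A smooth curve was fitted to the differences of all genes against length and GC content and subtracted, after which 3 members remained at least 1.5-fold from the other libraries in replicate 3. *Idi1* was at -1.82 and *Hsd17b7* at -0.73, 2 of 28 lower genes where 11.2% of all genes were. *Npc2* was at 0.97, 1 of 28 higher genes where 12.3% were. The other members ranged from -0.47 (*Srebf2*) to 0.47 (*Tm7sf2*), and the median over the 28 was -0.077. *Mvk*, *Pmvk* and *Mvd* were at 0.44, 0.39 and 0.23, and *Scap*, *Msmo1* and *Nsdhl* changed sign. On the same scale the medians in replicate 3 were 2.71 for the pigment cell list, 1.21 for eye and forebrain, -1.11 for neurons, -0.87 for epithelium, -0.51 for glia, -0.48 for endothelium and 0.048 for red blood cells, and their part in the values of *Idi1*, *Hsd17b7* and *Npc2* was not tested.

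**Figure D4:**
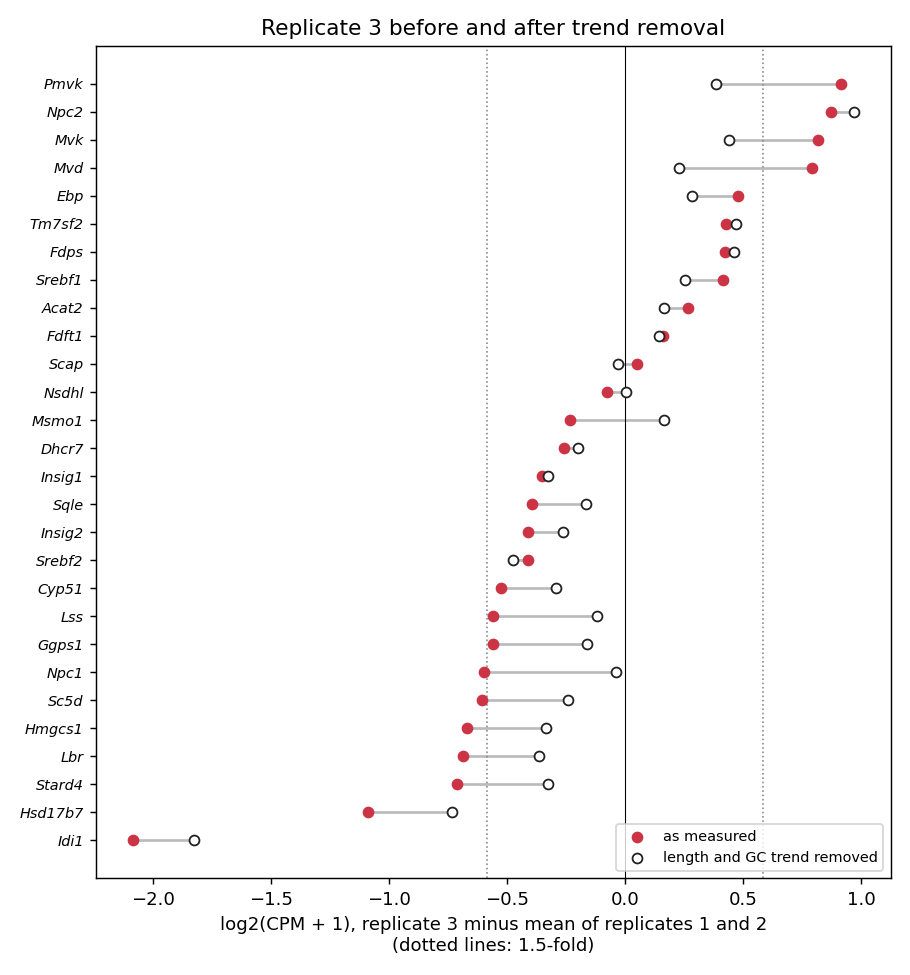
Log2 difference of OE replicate 3 from the mean of replicates 1 and 2 for each sterol gene as measured (filled) and after removal of the length and GC trend (open), with dotted lines at 1.5-fold. *Idi1*, *Hsd17b7* and *Npc2* stay outside the dotted lines, and the other genes lie between them once the trend is removed.

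Genes next to the pathway were read from 4 fixed lists. Of 7 genes for SREBP cleavage and sterol-regulated degradation, 6 passed the test against counting noise, where 81.5% of all genes did. In replicate 3, 4 of them were at least 1.5-fold lower and 0 higher, against the 18.5% and 17.6% of all genes given above. Among them were *Erlin2* (73.9, 59.8 and 28.8 CPM), *Mbtps2* (33.1, 26.5 and 16.8) and *Erlin1* (24.5, 23.2 and 15.2). *Mbtps2*, the protease that makes the second cut of SREBPs, had the lowest per-length level of this list (2.52 RPKM), where 42.3% of its coding bases are shared with *Yy2* on the same strand. *Tmem97*, a binding partner of NPC1, had the highest (40.02 RPKM). Both ends turned with the principal transcript length, where *Mbtps1*, the protease of the first cut, was highest (50.001 RPKM) and *Rnf139*, a ubiquitin ligase, lowest (5.62 RPKM). With the trend removed, *Erlin2* (-0.84) was still at least 1.5-fold lower. In replicate 1, *Erlin2* (0.82) and *Mbtps2* (0.62) were at least 1.5-fold higher, as 11.4% of all genes were, but with the trend removed neither was (0.58 and 0.15).

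Of 9 genes for fatty acid synthesis that SREBPs are known to control, 8 passed the test, near the 81.5% of all genes. In replicate 3, 3 were at least 1.5-fold lower and 0 higher, against 18.5% and 17.6% of all genes. *Acly*, which supplies cytosolic acetyl-CoA to both pathways, was at 555, 485 and 185 CPM, a log2 difference of -1.48 that was -1.43 with the trend removed. The desaturase genes *Scd2* (1126, 850.0 and 599 CPM) and *Scd1* (107, 73.8 and 51.6 CPM) were also lowest there, and were at -0.52 and -0.53 with the trend removed. All of these were at least 1.5-fold higher in replicate 1 (0.89, 0.66 and 0.78 for *Acly*, *Scd2* and *Scd1*), as 11.4% of all genes were, and *Acly* also in replicate 2 (0.59), as 1.57% were. With the trend removed, *Scd2* in replicate 1 (0.53) and *Acly* in replicate 2 (0.58) were under 1.5-fold. *Scd2* had the highest per-length level of this list (157 RPKM) and *Acss2* the lowest (0.668 RPKM). The list's median was 43.3 RPKM, against 15.6 RPKM for the 28 sterol genes.

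Of 8 genes for esterification, efflux, sterol receptors and contact-site transport, 8 passed (81.5% of all genes), and 1 was at least 1.5-fold higher in replicate 3, below the share of all genes (17.6%). This was *Nr1h2*, an oxysterol receptor (55.9, 71.4 and 110 CPM), whose difference of 0.79 was 0.39, under 1.5-fold, with the trend removed. In replicate 1 *Nr1h2* was at least 1.5-fold lower (-0.66), as 10.9% of all genes were, but not with the trend removed (-0.39). It also had the list's highest per-length level (23.6 RPKM), while *Abcg1*, a sterol exporter, had the lowest (0.580 RPKM). Of 8 genes of the isoprenoid branch, 6 passed, below the 81.5% of all genes, and 0 were at least 1.5-fold higher or lower in replicate 3 (17.6% and 18.5% of all genes). With the trend removed *Pggt1b*, a protein prenyltransferase subunit named after its value was seen, was higher at 0.90. *Coq2* (29.2 RPKM) and *Pdss1* (2.37 RPKM), both of ubiquinone synthesis, marked the ends of that list.

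**Figure D5:**
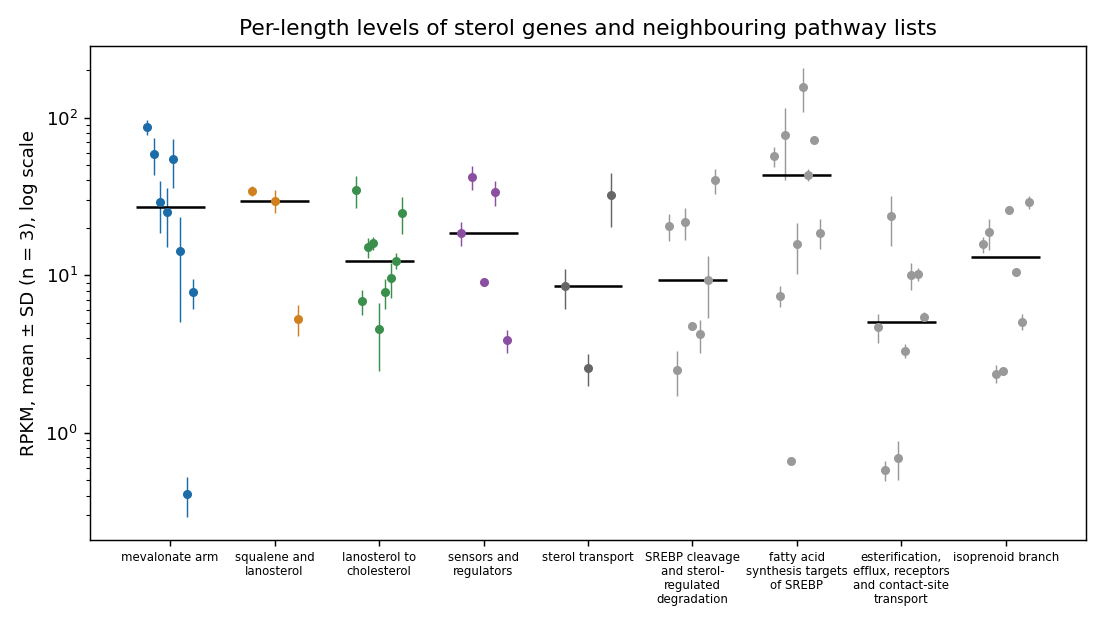
Per-length levels (RPKM, log axis) of the sterol genes by step (coloured) and of the 4 neighbouring lists (grey), as mean ± SD over 3 OE libraries, with a black bar at each median. Medians run from 5.05 RPKM for esterification, efflux, receptors and transport to 43.3 RPKM for fatty acid synthesis.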

How the data were processed

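RNA was extracted from E10.5 maxillary processes and sequenced as 150 bp paired-end reads, and 3 OE libraries formed 1 group. Per the labels and the submitters' processing notes, the authors mapped reads to mm10 with STAR 2.7.3a and counted them with HTSeq 0.12.4. The authors deposited raw counts per gene without normalization. The strand setting and the annotation release are not given in the sources used here. Rows that name no gene held 14.2% to 16.4% of counted reads and were left out.

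Of 55401 gene identifiers, 55141 matched GENCODE M21 (GRCm38). CPM used TMM factors (edgeR 4.0.16), and RPKM divided CPM by the union of annotated exons. Genes whose count averaged 10 or more were tested by chi-square against scaled library sizes, adjusted after Benjamini and Hochberg. Differences of 1 library used log2(CPM + 1). Dispersions came from an intercept-only edgeR fit. The length and GC trend was fitted with mgcv 1.9.3 and subtracted. DESeq2 1.42.0 gave alternative size factors and dispersions. R 4.3.3, Python 3.11.15, pandas 2.3.3 and matplotlib 3.10.9 were used. The steps were tested on simulated data.

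The members and the lists were chosen with earlier results of these data known. Every member was named, and from the other lists the genes with the highest and lowest RPKM and those at least 1.5-fold from the other libraries in the direction that most members had in that library. The values of 1 gene of these lists are not reported here. Nothing states that the samples came from separate litters. The p-values measure only how far the counts of these libraries depart from counting noise. A count of 0 allows up to 3 counts, or 0.0777 to 0.0843 CPM, a limit that covers counting error only.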

Additional observations from a re-analysis of the deposited data

How the results depend on the processing

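DESeq2 size factors and total counts left the mean level of each member within 1 SD between libraries. Of 124 alternative values for the other results, 31 moved by more than that spread or by over 1.5 times a count. Scaling to total counts moved the median difference of all genes by 0.11 in replicate 1 and -0.12 in replicate 3, and that of the members to 0.38 and -0.44. It left 7 members at least 1.5-fold higher and 0 lower in replicate 1, and turned the sign of *Scap* in replicate 3. With the length and GC trend removed, the members' medians were 0.082, -0.030 and -0.077 in replicates 1, 2 and 3, and 1 member was higher and 2 were lower in replicate 3. A pseudocount of 0.25 CPM left 2 members lower in replicate 1. The shares of all genes past 1.5-fold with total counts or with this pseudocount are not given here, so these counts show nothing particular to the members. With no filter, 53.4% of genes were beyond counting noise. The *Insig1* to *Insig2* ratio was 2.95 with the longest or the principal transcript as length, and that of *Lbr* to *Tm7sf2* was 0.71 with the latter. Why these values moved was not tested.

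Leaving out each library in turn gave 48.8% to 77.7% of genes and 22 to 28 members beyond counting noise. The members' median difference ran from 0.14 to 0.41 in replicate 1, from -0.14 to 0.20 in replicate 2 and from -0.41 to -0.20 in replicate 3. The members at least 1.5-fold higher numbered 0 to 10 in replicate 1 and 0 to 5 in replicate 2, and those lower 0 to 4 in either. In replicate 3 they were 4 higher and 5 to 10 lower. The shares of all genes past 1.5-fold with a library left out are not given here. These counts therefore show how the setting moves a count and nothing particular to the members. The level of the median member ran from 66.3 to 73.6 CPM and the coefficient of variation from 0.12, without replicate 3, to 0.363. No paired analysis was possible because the libraries form 1 group.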
